A study of Mus musculus with 9 samples.

Results

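Cadherins are calcium-dependent adhesion molecules through which neighbouring cells bind each other, and catenins link their cytoplasmic tails to actin. The data on 32 genes of this group were examined in the spinal cord of mouse embryos that lack the Onecut (OC) transcription factors Hnf6 and Oc2. The genes were listed by family name, with earlier results of these data known. They were 5 type I cadherins, 11 type II cadherins, T-cadherin, 9 delta protocadherins and 6 catenins. All 32 were measured, out of 22180 genes on the arrays. Total RNA of spinal cords dissected at e11.5, when spinal neurons are being born and begin to migrate, was read on Affymetrix MoGene 2.0 ST arrays, whose probes lie along the exons of each transcript. The tested embryos were Hnf6-/-;Oc2-/- (OC mutant, 4 arrays), and they were set against embryos labelled control (5 arrays), whose genotype the labels do not give further. Each array was taken as 1 embryo, and the fifth mutant embryo counted in the description of the series was not analysed here. The alleles are present in the whole embryo, so that a level in the spinal cord can also follow the loss of these factors elsewhere. The study asked how the OC factors act on the diversity and the position of spinal interneurons, and adhesion genes are among those through which neurons take their places.

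Type I cadherins such as N-cadherin, the product of *Cdh2*, hold epithelia and the neural tube together and bind p120 and beta-catenin through a conserved tail. Type II cadherins are expressed in combinations that differ between groups of neurons, and in the spinal cord they are best known for the sorting of motor neurons into pools and columns. Delta protocadherins are weaker adhesion molecules with their own cytoplasmic partners, known for roles in axon growth and in neuronal migration. All values below are log2 signals as deposited. A difference of 1 is a doubling of the signal, levels were never compared between genes because probes differ in brightness, and a gene was called where limma gave an adjusted p under 0.05 over all genes tested.

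*Onecut2* (the gene of Oc2) averaged 6.90 ± 0.34 (SD, n = 4) in OC mutants and 7.75 ± 0.20 (SD, n = 5) in controls, with every mutant array below every control array. *Onecut3*, the third OC gene, averaged 6.29 ± 0.12 (SD, n = 4) in OC mutants and 7.10 ± 0.21 (SD, n = 5) in controls, likewise without overlap. Over all genes, 1.79% were lower without overlap. Limma gave an adjusted p = 0.127 for *Onecut2* and 0.0624 for *Onecut3*, so neither was called by the criterion used for the listed genes. *Onecut1* (the gene of Hnf6) averaged 7.21 ± 0.08 (SD, n = 4) in OC mutants and 7.33 ± 0.28 (SD, n = 5) in controls. No source at hand places its feature inside or outside the deleted part, so it checks nothing about the genotype. Array medians lay between 5.24 and 5.31 in OC mutants and between 5.23 and 5.26 in controls. The mean of 10 pan-neuronal markers lay between 9.97 and 10.46 on the OC mutant arrays, against 10.01 to 10.55 on the control arrays. Markers of muscle, mesenchyme, neural crest, epithelium and vessels are given below with the cadherins that these tissues express. The mean of 5 sensory ganglion markers lay between 5.55 and 5.73 on the OC mutant arrays, against 5.74 to 6.03 on the control arrays, without overlap (difference −0.24, exact two-sided permutation test, p = 0.0238, or 0.238 adjusted over 10 marker lists). The gene of peripherin, *Prph*, lay between 6.18 and 6.82 in OC mutants and between 6.92 and 7.45 in controls (difference −0.76, limma adjusted p = 0.170, and 0.0217 with the pan-neuronal marker mean as a second term), and 0 of the 5 markers were called without that term. The differences of the other sensory ganglion markers were −0.23 for *Tlx2*, −0.21 for *Avil*, −0.033 for *Isl2* and 0.049 for *Scn10a*. *Isl2* also stands in the list of motor neuron markers. The part of ganglion tissue in the cadherin values was not tested.

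None of the 32 genes was called between OC mutants and controls: limma gave adjusted p-values from 0.533 to 0.991, with 0 of the 32 genes at an unadjusted p under 0.05. Over all genes, 0.0225% were called at the adjusted p, 4.81% were higher and 4.93% lower at the unadjusted p. In 0 of the 32 genes did the 4 mutant arrays all lie above or all lie below the 5 control arrays, against 2.15% above and 1.79% below over all genes. The log2 fold change was positive in 13 and negative in 19 of the 32, with a median of −0.065, against a median of 0.0045 over all genes. In 28 of the 32 genes the difference was smaller than the SD within the groups. The same count was not made over all genes, so it does not set these genes apart from others.

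**Figure D1:**
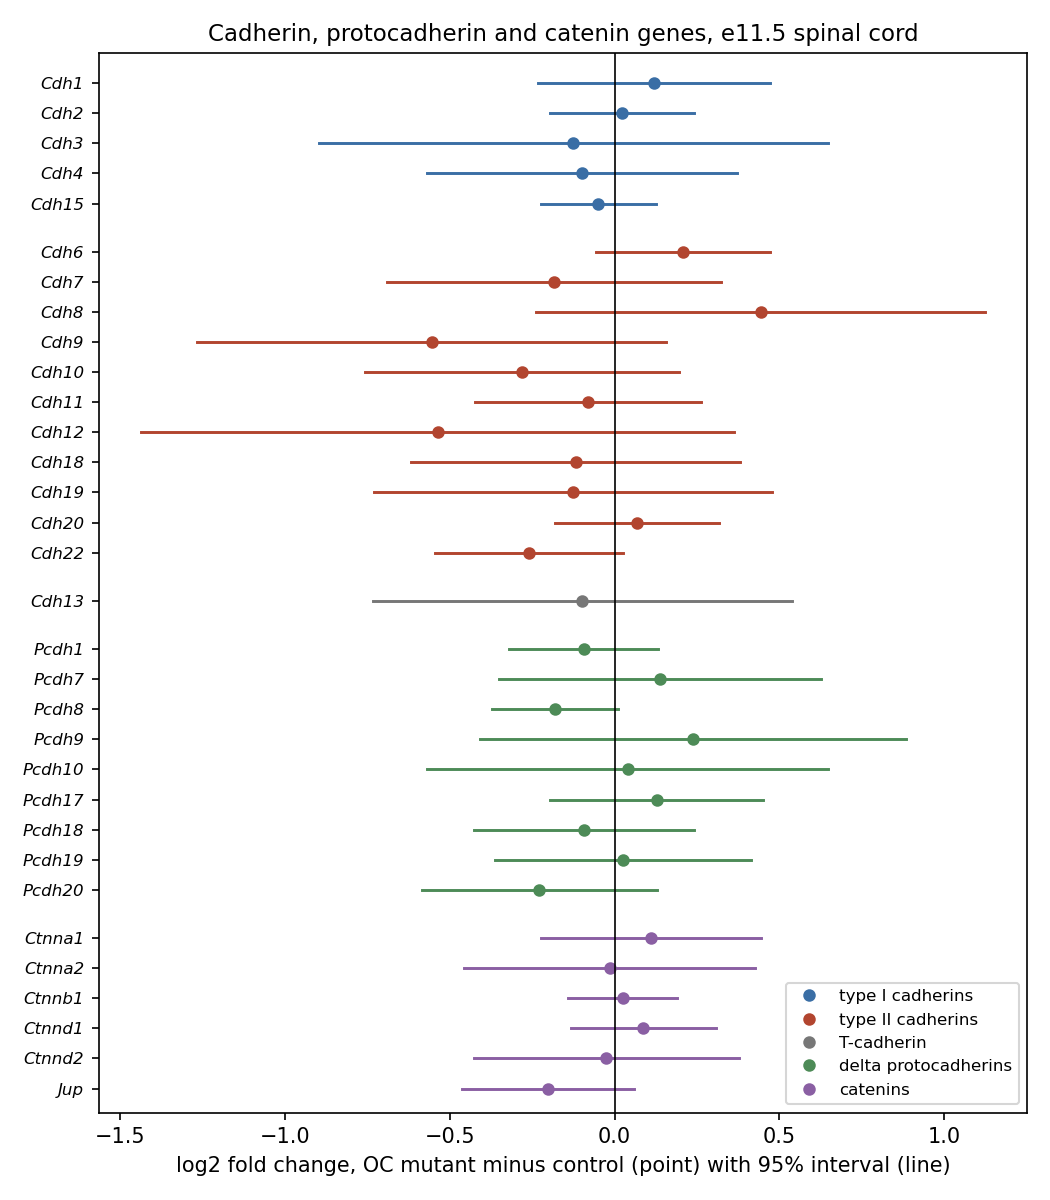
Each row is 1 gene, with its log2 fold change (OC mutant minus control, 4 and 5 arrays) as a point and the 95% interval of limma as a line, coloured by subfamily. All 32 intervals include 0, and the widest, that of *Cdh12*, runs from −1.44 to 0.36.

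The type I cadherins had log2 fold changes from −0.13 to 0.12 with a median of −0.049. *Cdh2* (feature 17352884), which encodes the N-cadherin of neural progenitors, read 11.11, 11.07, 10.87 and 11.01 on OC mutant arrays 1 to 4, against 10.73, 10.99, 11.10, 11.04 and 11.10 on control arrays 1 to 5. The mutant values lay inside the range of the control values but for array 1, which lay just above it. The log2 fold change was 0.022 (95% interval −0.20 to 0.24) (exact two-sided permutation test, p = 0.818; limma adjusted p = 0.968). *Cdh4* (feature 17380637), the gene of R-cadherin, read 7.75, 7.61, 6.87 and 7.47 on OC mutant arrays 1 to 4, against 7.05, 7.37, 7.94, 7.36 and 7.91 on control arrays 1 to 5. Arrays of both groups spanned almost a doubling of the signal and overlapped, with array 3 lowest among mutants and array 1 lowest among controls. Its log2 fold change was −0.10 (95% interval −0.57 to 0.37), with exact permutation p = 0.698 and limma adjusted p = 0.92. A dimmer feature of *Cdh4* gave 0.12 in place of −0.099, so the direction depends on the feature.

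E-cadherin and P-cadherin, encoded by *Cdh1* and *Cdh3*, are cadherins of epithelia such as the skin. *Cdh1* (feature 17505148) read 5.14, 5.18, 5.23 and 5.75 on OC mutant arrays 1 to 4, against 5.65, 5.11, 4.94, 5.11 and 5.22 on control arrays 1 to 5. The mutant array 4 stood above the other mutants and the control array 1 above the other controls. *Cdh1* had a log2 fold change of 0.12 (95% interval −0.23 to 0.47) (exact two-sided permutation test, p = 0.484; limma adjusted p = 0.853), and −0.023 without OC mutant array 4. *Cdh3* ranged from 5.39 to 6.68 in OC mutants and from 5.65 to 7.41 in controls, and its difference of −0.13 (95% interval −0.90 to 0.65) was 0.18 without control array 1. Of 13 epithelial markers, 0 were called and 8 had a positive difference, and their mean lay between 4.36 and 4.72 in OC mutants and between 4.42 and 4.72 in controls. *Cdh15* (feature 17506460), the M-cadherin of skeletal muscle precursors, read 5.24, 5.23, 5.32 and 5.24 on OC mutant arrays 1 to 4, against 5.37, 5.36, 5.34, 5.28 and 5.17 on control arrays 1 to 5. All 9 values lay within 0.20 of each other, with a difference of −0.049 (95% interval −0.22 to 0.12) (exact two-sided permutation test, p = 0.333; limma adjusted p = 0.886). The mean of 13 muscle markers lay between 4.44 and 5.10 in OC mutants and between 4.69 and 5.13 in controls. Limma called 0 of the 13, and 3 were lower at an unadjusted p under 0.05, against 4.93% of all genes. The difference was negative in 10 of the 13 and positive in 3.

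The type II cadherins held the widest differences between the groups and the widest spread within them. Their log2 fold changes ran from −0.56 to 0.44, with a median of −0.13 and 8 of 11 negative. *Cdh9* (feature 17310515), one of the type II genes of neurons, read 5.12, 5.60, 4.09 and 4.56 on OC mutant arrays 1 to 4, against 4.67, 5.29, 6.11, 5.13 and 5.77 on control arrays 1 to 5. The mutant array 3 was the lowest of all and the control array 3 the highest, and mutant arrays 3 and 4 lay below every control while 1 and 2 lay among them. *Cdh9* had a log2 fold change of −0.56 (95% interval −1.27 to 0.15), or 0.681-fold (exact two-sided permutation test, p = 0.191; limma adjusted p = 0.611). It stayed negative with each array left out in turn, from −0.81 to −0.31.

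*Cdh8* (feature 17512121), another type II gene of neurons, with a difference of the opposite sign, read 7.12, 7.20, 6.36 and 6.39 on OC mutant arrays 1 to 4, against 5.53, 5.96, 6.99, 6.13 and 7.01 on control arrays 1 to 5. In both groups the values fell into a higher and a lower set: mutant arrays 1 and 2 and control arrays 3 and 5 read about 7, and the lower mutant arrays lay above the lower controls. The log2 fold change of *Cdh8* was 0.44 (95% interval −0.24 to 1.12), or 1.36-fold (exact two-sided permutation test, p = 0.309; limma adjusted p = 0.674). Left-out arrays gave it values from 0.24 to 0.61. *Cdh8* and *Cdh9* are among the candidates that the study itself selected on these arrays, so their differences are not independent evidence of a direction.

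*Cdh22* (feature 17394366), whose product is a type II cadherin of the brain, had the smallest unadjusted p of the type II genes. *Cdh22* read 6.49, 6.51, 5.93 and 6.30 on OC mutant arrays 1 to 4, against 6.45, 6.58, 6.80, 6.45 and 6.55 on control arrays 1 to 5. The highest 2 mutant arrays lay inside the control range and the other 2 below it. Its difference was −0.26 (95% interval −0.54 to 0.026) (exact two-sided permutation test, p = 0.0873; limma adjusted p = 0.55). *Cdh6* (feature 17316120), expressed in dorsal neural tube, neural crest and subsets of neurons, read 8.61, 8.18, 8.70 and 8.44 on OC mutant arrays 1 to 4, against 8.44, 8.40, 8.18, 8.27 and 8.10 on control arrays 1 to 5. Mutant arrays 1 and 3 exceeded every control, and mutant array 2 lay among the lowest controls. The difference was 0.21 (95% interval −0.057 to 0.47) (exact two-sided permutation test, p = 0.151; limma adjusted p = 0.608).

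**Figure D2:**
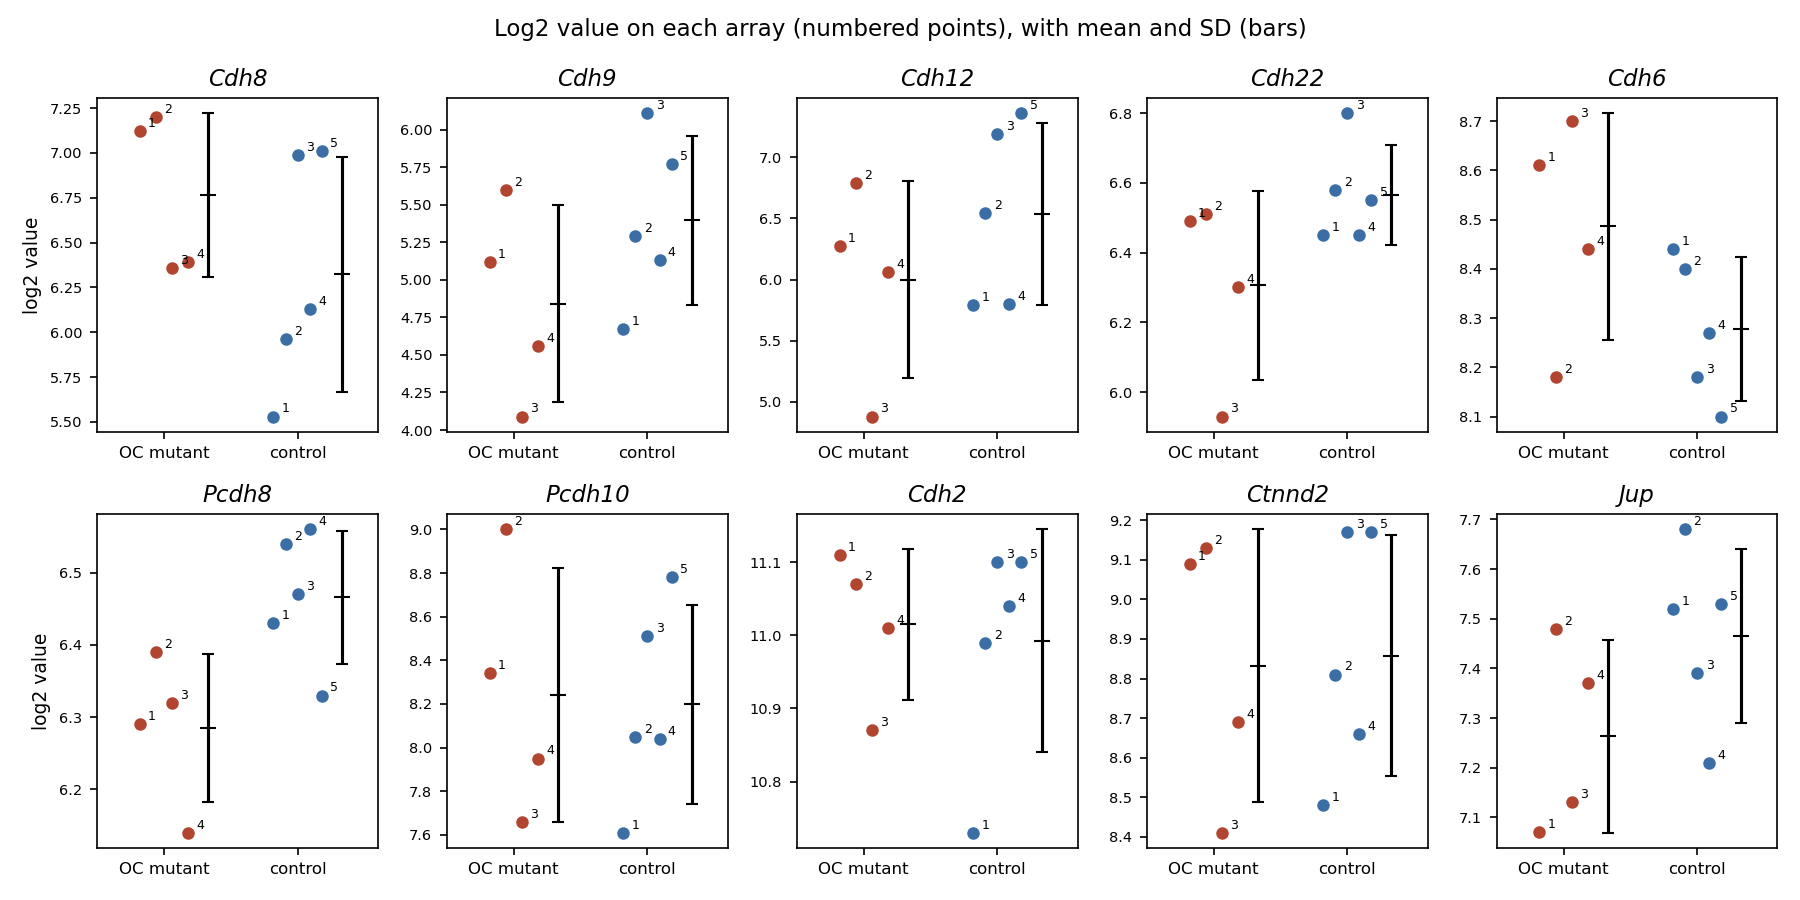
Each panel shows the log2 value of 1 gene on every array (points numbered as the arrays, OC mutant left, control right) with the mean and SD of the group as a bar, on an axis of its own. The groups overlap in all 10 panels, and in *Cdh8*, *Cdh9*, *Cdh12*, *Pcdh10* and *Ctnnd2* mutant arrays 1 and 2 and control arrays 3 and 5 are the high ones of their groups.

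Further type II cadherins of neurons also varied more within groups than between them. *Cdh12* ranged from 4.88 to 6.79 in OC mutants and from 5.79 to 7.36 in controls, and its difference of −0.54 (95% interval −1.44 to 0.36) was −0.16 without OC mutant array 3. *Cdh10* ranged from 6.65 to 7.59 in OC mutants and from 7.04 to 7.93 in controls, with a difference of −0.28 (95% interval −0.76 to 0.20). *Cdh7*, a cadherin of motor neurons and of migrating neural crest in the chick, had a difference of −0.18 (95% interval −0.69 to 0.32) and *Cdh18* one of −0.12 (95% interval −0.62 to 0.38). *Cdh20*, which in the chick marks motor neuron pools, had one of 0.068 (95% interval −0.18 to 0.32).

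*Cdh11* and *Cdh19* are type II cadherins of tissues that surround the cord. *Cdh11* (feature 17512153), a cadherin of mesenchyme, read 9.36, 9.40, 9.57 and 9.92 on OC mutant arrays 1 to 4, against 10.04, 9.75, 9.45, 9.34 and 9.64 on control arrays 1 to 5. The highest value of each group was on the array with the highest mesenchyme marker mean of that group, mutant array 4 (7.47) and control array 1 (8.10). Its difference was −0.081 (95% interval −0.42 to 0.26) (exact two-sided permutation test, p = 0.651; limma adjusted p = 0.908). Over 14 mesenchyme and sclerotome markers, 0 were called, 13 had a negative difference, and their mean lay between 6.71 and 7.47 in OC mutants and between 6.68 and 8.10 in controls. *Cdh19* (feature 17226127), a cadherin of neural crest cells and Schwann cell precursors, read 3.92, 3.21, 3.71 and 3.66 on OC mutant arrays 1 to 4, against 4.78, 3.68, 3.11, 3.66 and 3.51 on control arrays 1 to 5. Control array 1 stood above the others, and the difference of −0.13 (95% interval −0.73 to 0.48) became 0.13 without it (exact two-sided permutation test, p = 0.818; limma adjusted p = 0.921). Of 5 neural crest and Schwann cell precursor markers, 0 were called and all 5 had a negative difference. For 2 of them the unadjusted limma p was under 0.05, while 4.93% of all genes were lower at that threshold. The mean of the 5 lay between 6.92 and 7.55 in OC mutants and between 7.20 and 7.81 in controls. In whole tissue, fewer cells of a type and less RNA per cell cannot be told apart, and the part of these tissues in the cadherin values was not tested. T-cadherin, encoded by *Cdh13* and held in the membrane by a lipid anchor without a cytoplasmic tail, had a difference of −0.10 (95% interval −0.73 to 0.54).

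The delta protocadherins had log2 fold changes from −0.23 to 0.24 with a median of 0.025, 5 positive and 4 negative. *Pcdh8* (feature 17308939), a protocadherin of paraxial mesoderm and of neurons where it takes part in the removal of N-cadherin from synapses, had the smallest limma p of all 32 genes. *Pcdh8* read 6.29, 6.39, 6.32 and 6.14 on OC mutant arrays 1 to 4, against 6.43, 6.54, 6.47, 6.56 and 6.33 on control arrays 1 to 5. Of the mutant arrays, 3 lay below every control array, and only array 2 exceeded the lowest control. Its log2 fold change was −0.18 (95% interval −0.37 to 0.0096), a narrow interval because the SD within groups was only 0.10. The exact two-sided permutation test gave p = 0.0317, 1 of 32 such tests under 0.05, against 10.0% of all genes, and limma an adjusted p = 0.533 over all genes.

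*Pcdh20* (feature 17309001) read 4.04, 4.70, 4.97 and 4.48 on OC mutant arrays 1 to 4, against 4.99, 4.66, 4.62, 4.80 and 4.82 on control arrays 1 to 5. Mutant arrays 1 and 4 lay below every control and 2 and 3 among them, with a difference of −0.23 (95% interval −0.58 to 0.13) (exact two-sided permutation test, p = 0.302; limma adjusted p = 0.679). *Pcdh1* (feature 17353923), whose product lies at contacts between cells, read 5.41, 5.68, 5.25 and 5.54 on OC mutant arrays 1 to 4, against 5.52, 5.58, 5.71, 5.42 and 5.59 on control arrays 1 to 5. Mutant arrays 1 and 3 lay below every control and 2 and 4 among them, and the difference was −0.094 (95% interval −0.32 to 0.13) (exact two-sided permutation test, p = 0.349; limma adjusted p = 0.813). *Pcdh17* (feature 17302289), known from synapses of corticostriatal circuits, read 7.59, 7.39, 7.32 and 7.32 on OC mutant arrays 1 to 4, against 7.39, 6.98, 7.45, 6.93 and 7.63 on control arrays 1 to 5. The mutant values lay inside the control range, with a difference of 0.13 (95% interval −0.19 to 0.45) (exact two-sided permutation test, p = 0.452; limma adjusted p = 0.823). *Pcdh10*, also called OL-protocadherin and known from axon growth in the forebrain, ranged from 7.66 to 9.0 in OC mutants and from 7.61 to 8.78 in controls, with a difference of 0.040 (95% interval −0.57 to 0.65). *Pcdh9* had a difference of 0.24 (95% interval −0.41 to 0.88), *Pcdh7* one of 0.14 (95% interval −0.35 to 0.63) and *Pcdh18* one of −0.092 (95% interval −0.43 to 0.24). *Pcdh19*, which binds N-cadherin and is mutated in a human epilepsy, had one of 0.025 (95% interval −0.36 to 0.41).

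Among the catenins, the log2 fold changes ran from −0.20 to 0.11 with a median of 0.0051, 3 positive and 3 negative. *Ctnnb1*, the gene of beta-catenin, which also carries Wnt signals into the nucleus, varied little. It ranged from 10.53 to 10.62 in OC mutants and from 10.50 to 10.63 in controls, and 0.446% of all genes had a smaller SD within groups. Its difference was 0.025 (95% interval −0.14 to 0.19), the narrowest of the 32 intervals. *Jup* (feature 17269464), the gene of plakoglobin, the catenin of desmosomes and junctions, read 7.07, 7.48, 7.13 and 7.37 on OC mutant arrays 1 to 4, against 7.52, 7.68, 7.39, 7.21 and 7.53 on control arrays 1 to 5. Mutant arrays 1 and 3 lay below every control array and arrays 2 and 4 among them. The difference was −0.20 (95% interval −0.46 to 0.059) (exact two-sided permutation test, p = 0.135; limma adjusted p = 0.614). *Ctnnd1* (feature 17387432), the gene of p120-catenin, which keeps cadherins at the membrane, read 8.28, 8.13, 7.90 and 8.18 on OC mutant arrays 1 to 4, against 8.03, 8.07, 8.20, 7.91 and 7.96 on control arrays 1 to 5. The groups overlapped, with a difference of 0.088 (95% interval −0.13 to 0.31) (exact two-sided permutation test, p = 0.349; limma adjusted p = 0.821). *Ctnna1* (feature 17349520), the gene of the alpha-catenin of epithelia and progenitors, read 8.79, 8.55, 9.17 and 9.22 on OC mutant arrays 1 to 4, against 9.14, 8.85, 8.63, 8.83 and 8.66 on control arrays 1 to 5. The highest and the lowest value were both mutant, and the difference was 0.11 (95% interval −0.22 to 0.45) (exact two-sided permutation test, p = 0.571; limma adjusted p = 0.859). The neuronal genes *Ctnna2*, of alpha N-catenin, and *Ctnnd2*, of delta-catenin, had differences of −0.015 (95% interval −0.46 to 0.43) and −0.025 (95% interval −0.43 to 0.38).

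Many of the 32 genes, not only those of neurons, varied widely between embryos of 1 genotype. The SD within groups exceeded the median of all genes (0.18) in 25 of the 32 genes and the 90th percentile of all genes (0.32) in 15 of them. It was largest for *Cdh12* (0.77), *Cdh3* (0.66), *Cdh9* (0.60) and *Cdh8* (0.58). The same arrays were high and low across many of these genes. Mutant array 3 and control array 1 were both the lowest of their groups in 12 of the 32 genes (*Cdh2*, *Cdh4*, *Cdh8*, *Cdh9*, *Cdh10*, *Cdh12*, *Cdh13*, *Cdh22*, *Pcdh7*, *Pcdh10*, *Ctnna2* and *Ctnnd2*), against 10.9% of all genes. They were both the highest in 4 of the 32, against 10.6% of all genes.

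**Figure D3:**
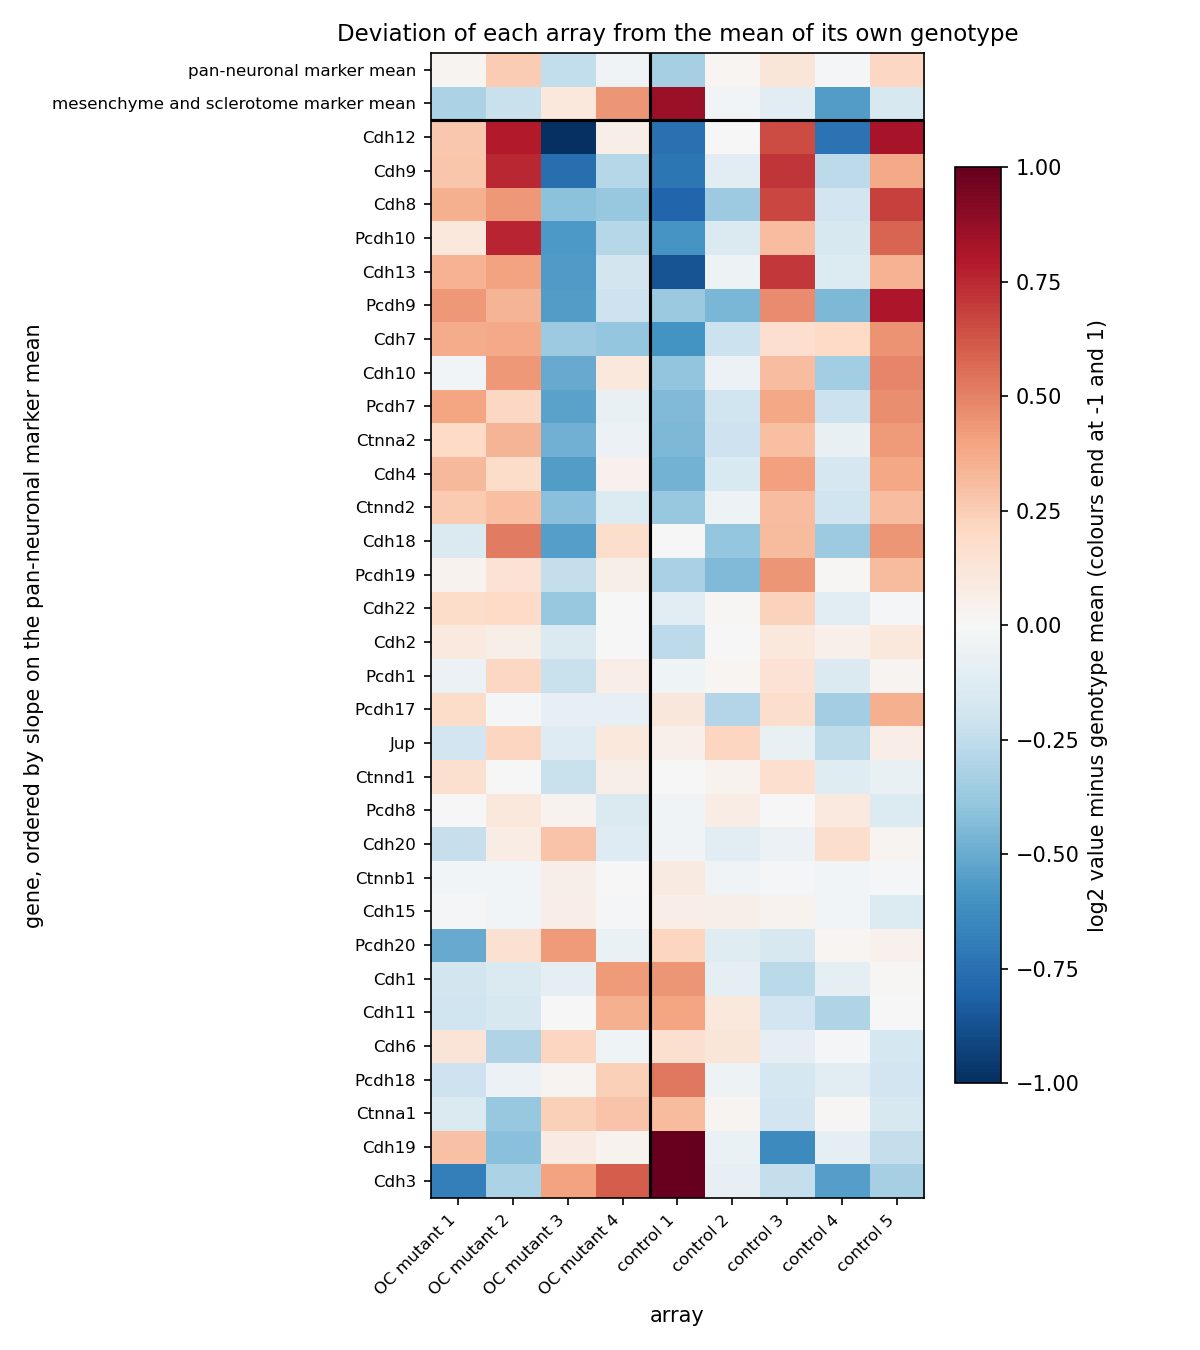
Rows are the 32 genes, ordered by their slope on the pan-neuronal marker mean, below the rows of the pan-neuronal and the mesenchyme marker means. Columns are the arrays (OC mutant left, control right), and colour is the log2 value minus the mean of the same genotype. Most of the upper genes are high on mutant arrays 1 and 2 and control arrays 3 and 5 and low on mutant array 3 and control array 1, and *Cdh3*, *Cdh19*, *Ctnna1* and *Pcdh18* are highest of the controls on array 1.

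The mean of the 10 pan-neuronal markers followed the same arrays. It was 10.24, 10.46, 9.97 and 10.18 on OC mutant arrays 1 to 4, against 10.01, 10.35, 10.46, 10.31 and 10.55 on control arrays 1 to 5 (difference −0.13, exact two-sided permutation test, p = 0.381). Each gene was therefore fitted in limma with the genotype and this mean together, a fit chosen after the data were seen, and a slope of 1 means that the gene moved as much as the mean of the markers did. The slope was called in 13 of the 32 genes (40.6%), positive in 11 and negative in 2, against 4.48% positive and 2.82% negative over all genes. It was called in 1 of 5 type I and 6 of 11 type II cadherins, in T-cadherin, in 2 of 9 delta protocadherins and in 3 of 6 catenins. The 10 markers were not uniform. Between OC mutants and controls 0 were called by limma, and the difference was negative in 8 and positive in 2. At an unadjusted limma p under 0.05, 2 were lower (*Nefl*, −0.37, and *Tubb3*, −0.26), against 4.93% of all genes. On the mean that they form themselves, 7 of the 10 had a called positive slope, while *Nefm* had a slope of −0.087.

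The 11 genes with a positive slope were *Cdh4*, *Cdh7*, *Cdh8*, *Cdh9*, *Cdh10*, *Cdh12*, *Cdh13*, *Pcdh7*, *Pcdh10*, *Ctnna2* and *Ctnnd2*. *Cdh12* had the steepest slope, 3.39 (SE 0.53) (limma adjusted p = 0.00579), which was 3.82 within OC mutants and 3.08 within controls. *Cdh9* followed with 2.74 (SE 0.39) (limma adjusted p = 0.00402) and *Cdh8* with 2.45 (SE 0.46) (limma adjusted p = 0.0105). *Pcdh10* had the smallest p of the 32 genes, with a slope of 2.40 (SE 0.30) (limma adjusted p = 0.00332), or 2.79 within OC mutants and 2.11 within controls. Both catenins of neurons were among them, *Ctnna2* with 1.65 (SE 0.27) (limma adjusted p = 0.00654) and *Ctnnd2* with 1.44 (SE 0.28) (limma adjusted p = 0.0109). On its dimmer feature *Cdh4* had a slope of 1.05 (limma adjusted p = 0.239), so its call rests on 1 of its features. *Pcdh9* had a slope of 2.02 (SE 0.56) and just missed the threshold (limma adjusted p = 0.0504).

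The 2 genes with a negative slope were *Cdh19*, with −2.0 (SE 0.48) (limma adjusted p = 0.0297), and *Ctnna1*, with −1.13 (SE 0.26) (limma adjusted p = 0.0246). The slope of *Cdh19* was −0.95 within OC mutants and −2.78 within controls, and −1.02 without control array 1. That of *Ctnna1* was −1.35 within OC mutants and −0.96 within controls. Negative calls among the 32 genes numbered 0 without control array 1, 3 or 5 or without OC mutant array 2. They also numbered 0 with the replicate number as a block and without moderation. Of the 5 neural crest markers read beside *Cdh19*, *Sox10* and *Erbb3* also had called negative slopes. The slopes of the other markers were not called, with −0.062 for *Foxd3*, 0.004 for *Ngfr* and 1.18 for *Tfap2a*. Of the 14 mesenchyme and sclerotome markers, 3 had a called negative and 0 a called positive slope. With the mean of those markers in place of the pan-neuronal mean, the slope was called in 1 of the 32 genes, *Cdh3*, against 0.807% of all genes in that fit. The part of tissue composition in these relations was not tested, and markers and cadherins were read on the same 9 arrays. The N-cadherin gene *Cdh2* had a slope of 0.58 (SE 0.22) (limma adjusted p = 0.139) and beta-catenin *Ctnnb1* one of −0.20 (SE 0.20) (limma adjusted p = 0.649).

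**Figure D4:**
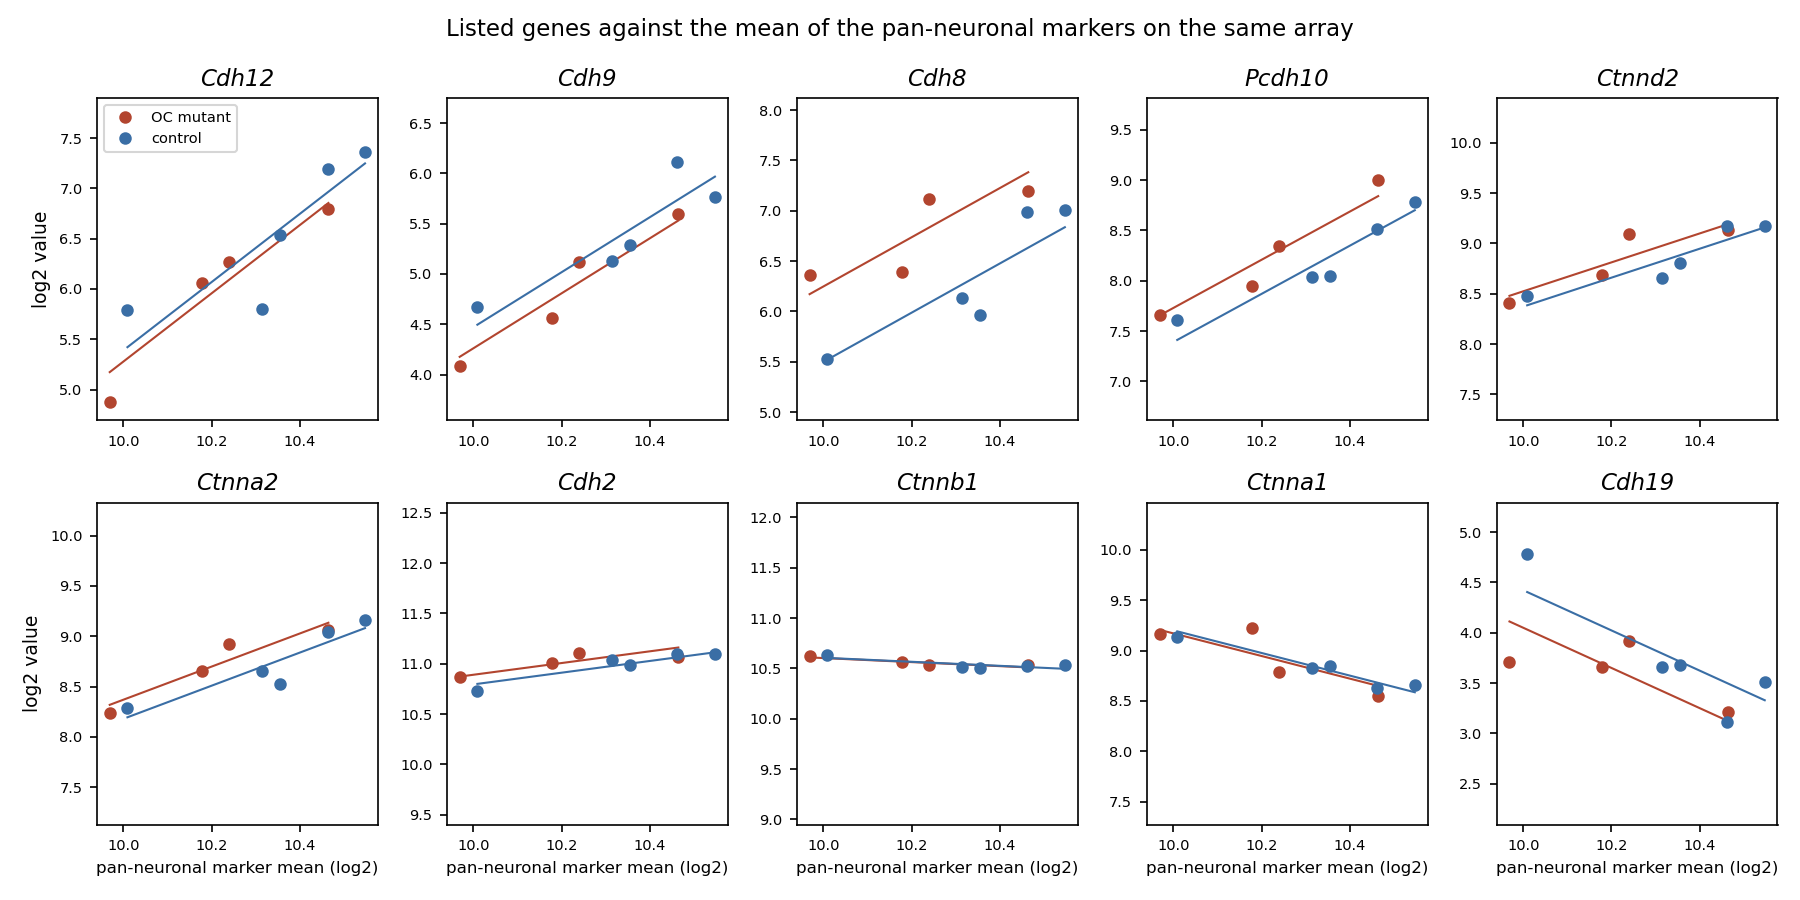
Each panel plots the log2 value of 1 gene against the mean of 10 pan-neuronal markers on the same array (OC mutant red, control blue), on axes that all span the same height, with lines of the slope common to both genotypes. *Cdh12*, *Cdh9*, *Cdh8*, *Pcdh10*, *Ctnnd2* and *Ctnna2* climb with the marker mean in both genotypes. *Cdh2* climbs less (slope 0.58, not called), *Ctnnb1* stays nearly level (−0.20), and *Ctnna1* and *Cdh19* decline.

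The slope had the same sign within OC mutants and within controls in 29 of the 32 genes, against 64.9% of all genes. The count of calls depended on arrays at both ends of the marker mean, and calls over all genes dropped too. Without control array 1, 7 of the 32 genes were called, against 3.49% of all genes, and without OC mutant array 3 also 7, against 2.9%. Without control array 5, which had the highest marker mean, 8 were called, against 4.14%. Without control array 1 and OC mutant array 3 together, limma called 0 of the 32 and 0 of all 22180 genes, and 15 of the 32 slopes had an unadjusted p under 0.05, against 12.6% of all genes.

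With the pan-neuronal mean in the fit, none of the 32 genes was called between OC mutants and controls by limma, against 0.397% of all genes, and 4 of the 32 were higher at an unadjusted p under 0.05 and 0 lower, against 6.78% and 6.93% of all genes. The 4 genes were *Cdh8*, *Pcdh7*, *Pcdh9* and *Pcdh10*. *Cdh8* had a log2 fold change of 0.75 (95% interval 0.36 to 1.14, limma adjusted p = 0.116) in this fit. *Pcdh10* had one of 0.34 (95% interval 0.091 to 0.59, limma adjusted p = 0.233), *Pcdh9* one of 0.49 (95% interval 0.024 to 0.96, limma adjusted p = 0.343) and *Pcdh7* one of 0.35 (95% interval 0.032 to 0.66, limma adjusted p = 0.323). The differences of *Cdh9* and *Cdh12* were −0.21 and −0.11, while the marker mean itself differed by −0.13 between OC mutants and controls.

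Of the 32 genes, 6 lie on mouse chromosome 15 (*Cdh6*, *Cdh9*, *Cdh10*, *Cdh12*, *Cdh18* and *Ctnnd2*). A called positive slope was found in 4 of the 6, against 11 of the 32 and 4.48% of all genes. Whether position on the chromosome bears on the slope was not tested. The sequences around the transcription starts of these 4 genes are shown because the genes moved together between arrays, and that of *Pcdh17* because it alone among the entries of the listed genes holds a core of the Onecut binding motif. They run from 250 bases before to 50 bases after the start and come from RefSeq, build GRCm38.p6. Capitals mark the letters ATTGAT, the Onecut core, on either strand, and CANNTG, the E-box bound by proneural factors, which reads alike on both strands. The letters of these motifs do not overlap in the sequences shown.
Cdh9: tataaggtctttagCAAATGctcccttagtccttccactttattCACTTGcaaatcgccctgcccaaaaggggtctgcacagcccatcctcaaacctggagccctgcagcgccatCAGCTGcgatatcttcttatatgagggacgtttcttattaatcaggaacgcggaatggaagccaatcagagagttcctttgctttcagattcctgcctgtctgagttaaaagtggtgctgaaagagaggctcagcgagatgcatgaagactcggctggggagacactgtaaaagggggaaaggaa
Cdh10: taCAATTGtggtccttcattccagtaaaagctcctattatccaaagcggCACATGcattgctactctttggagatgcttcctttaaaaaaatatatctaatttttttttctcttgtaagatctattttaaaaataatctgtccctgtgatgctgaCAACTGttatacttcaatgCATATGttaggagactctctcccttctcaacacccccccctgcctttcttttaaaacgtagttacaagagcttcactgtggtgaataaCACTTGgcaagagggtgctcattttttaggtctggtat
Cdh12: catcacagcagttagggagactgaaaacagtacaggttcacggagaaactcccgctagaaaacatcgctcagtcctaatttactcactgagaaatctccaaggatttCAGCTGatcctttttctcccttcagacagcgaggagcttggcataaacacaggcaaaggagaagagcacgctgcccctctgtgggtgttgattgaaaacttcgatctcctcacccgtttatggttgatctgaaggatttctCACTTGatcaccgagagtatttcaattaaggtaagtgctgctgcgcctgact
Ctnnd2: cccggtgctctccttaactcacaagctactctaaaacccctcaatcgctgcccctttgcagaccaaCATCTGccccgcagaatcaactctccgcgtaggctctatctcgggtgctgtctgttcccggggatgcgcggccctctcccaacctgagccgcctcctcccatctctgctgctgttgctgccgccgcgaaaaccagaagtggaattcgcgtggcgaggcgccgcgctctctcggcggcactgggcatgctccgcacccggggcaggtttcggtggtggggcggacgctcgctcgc
Pcdh17: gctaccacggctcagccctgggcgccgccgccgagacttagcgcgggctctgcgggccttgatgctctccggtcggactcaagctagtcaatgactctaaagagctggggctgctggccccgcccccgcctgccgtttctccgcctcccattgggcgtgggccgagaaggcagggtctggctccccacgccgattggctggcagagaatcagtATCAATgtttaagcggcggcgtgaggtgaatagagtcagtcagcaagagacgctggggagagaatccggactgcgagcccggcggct
They lie at chr15:16728665-16728964, plus strand (*Cdh9*), chr15:18820079-18820378, plus strand (*Cdh10*), chr15:21111202-21111501, plus strand (*Cdh12*), chr15:30172284-30172583, plus strand (*Ctnnd2*) and chr14:84443313-84443612, plus strand (*Pcdh17*).

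Start-site sequences were matched for 23 of the 32 genes, with 28 entries in all. The core ATTGAT was present on either strand in 1 of the 28 (3.57%), at *Pcdh17*, against 7.54% of 32851 entries of mouse genes. CANNTG was present in 15 of the 28 (53.6%), against 72.3% of all entries. *Cdh10* held 5 such matches, *Cdh9* 3, *Cdh12* 2 and *Ctnnd2* 1, while *Pcdh17* held 0. A match is a run of letters and not a binding site, and other stretches of these genes were not searched.

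Genes that work with the listed ones were read from 3 further lists. Of 18 other cadherin superfamily genes, 0 were called. At an unadjusted p under 0.05 limma found 2 higher and 1 lower, against 4.81% and 4.93% of all genes. In 1 of the 18 every mutant array lay above every control array and in 0 below, against 2.15% and 1.79% of all genes. *Dchs2*, a large cadherin of the Dachsous family, ranged from 7.04 to 7.27 in OC mutants and from 6.15 to 6.97 in controls, so that the groups did not overlap (difference 0.44 (95% interval 0.10 to 0.78), limma adjusted p = 0.412). *Fat4*, which binds Dachsous cadherins in planar polarity, had a difference of 0.31 (95% interval 0.039 to 0.59) (limma adjusted p = 0.469) and *Fat2* one of −0.28 (95% interval −0.50 to −0.071) (limma adjusted p = 0.4). *Cdh5* (feature 17504399), the VE-cadherin of blood vessels, read 9.14, 9.10, 9.11 and 9.37 on OC mutant arrays 1 to 4, against 9.46, 9.43, 9.29, 8.92 and 9.31 on control arrays 1 to 5. The groups overlapped, with a difference of −0.11 (95% interval −0.37 to 0.16) (exact two-sided permutation test, p = 0.429; limma adjusted p = 0.82), and 0 of 11 endothelial markers were called.

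Of 18 junction partners of cadherins, 0 were called. At the unadjusted p limma found 1 higher and 2 lower, against 4.81% and 4.93% of all genes. In 0 of the 18 every mutant array lay above every control array and in 1 below, against 2.15% and 1.79% of all genes. *Nectin4*, an adhesion molecule of the immunoglobulin family at adherens junctions, ranged from 4.06 to 4.57 in OC mutants and from 4.59 to 4.88 in controls, without overlap (difference −0.40 (95% interval −0.66 to −0.14), limma adjusted p = 0.352). *Nectin2* had a difference of −0.30 (95% interval −0.57 to −0.036) (limma adjusted p = 0.47), and *Ctnnal1*, of an alpha-catenin related protein, one of 0.24 (95% interval 0.029 to 0.46) (limma adjusted p = 0.47). Of 8 measured repressors and proteases of cadherins, 0 were called and 0 had an unadjusted p under 0.05. The smallest p was that of *Snai1*, a repressor of E-cadherin, with a difference of −0.24 (95% interval −0.53 to 0.050) (limma adjusted p = 0.584), followed by *Zeb1* with 0.068 (95% interval −0.14 to 0.28) and *Psen2*, of the gamma-secretase that cuts cadherin tails, with −0.065 (95% interval −0.32 to 0.19).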

How the data were processed

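The authors extracted total RNA from dissected spinal cords, labelled it with a whole-transcript kit and hybridised 1 array per sample. They deposited 1 log2 value per feature and array. Background correction, summarisation and normalization are not given in the sources used here. Arrays have no read depth, and their number limits the precision. The 41345 features were named through the platform annotation: 23521 carry 1 symbol, 1820 several and 16004 none. One-symbol features were used, 23328 of them matched in RefSeq (GRCm38.p6), and for 1082 genes with several features the brightest over the 9 arrays was kept, which gave 22180 genes. This applied to *Cdh1*, *Cdh2* and *Cdh4*, and 1 feature of *Pcdh10* was left out because it carries 2 symbols.

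Genes were tested in limma 3.58.1 (R 4.3.3, lmFit and eBayes, prior degrees of freedom 4.47) as OC mutant minus control without covariates, with Benjamini-Hochberg adjustment over the 22180 genes and a threshold of 0.05. Single genes were also put to an exact two-sided permutation test over the 126 assignments of arrays, whose smallest p is 0.00794. A fit with the pan-neuronal marker mean as a second term gave slopes, adjusted in the same way. Limma weighs each difference against the spread between these arrays, moderated over all genes. The permutation test ranks it among the reassignments of the same arrays. The steps were tested on simulated data. The genes and lists were chosen with earlier results of these data known. Named with values on every array were *Cdh8*, *Cdh9*, the 3 genes of smallest p in each subfamily but T-cadherin, and *Cdh1*, *Cdh2*, *Cdh5*, *Cdh11*, *Cdh15* and *Cdh19*, and from further lists up to 3 of smallest p. Others named, *Pcdh17* among them, were chosen after their values were seen. The alternatives were other feature rules, a filter on dim genes, quantile normalization, centring, other moderation, array weights, a replicate block and each array left out. Second terms, and 2 arrays left out together, were added after the data were seen.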

Additional observations from a re-analysis of the deposited data

Results flagged for a closer look

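Each gene was checked for a single array far from the others of its group. Of 64 groups of arrays, 5 held one, where chance gives about 1 in 20. *Cdh1* read 5.75 on OC mutant array 4, against 5.14 to 5.23 on the other mutant arrays. *Cdh15* read 5.32 on OC mutant array 3, against 5.23 to 5.24 on the others, a gap of 0.08 that stood out because the others nearly coincided. Control array 1 was the high one in the other 3 groups: *Cdh3* read 7.41 there, against 5.65 to 6.12 on the other controls, *Pcdh18* read 9.04, against 8.32 to 8.46, and *Ctnnb1* read 10.63, against 10.50 to 10.53. Control array 1 also had the highest mesenchyme marker mean of the 9 arrays (8.10).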

How the results depend on the processing

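Limma called 0 of the 32 genes in all 21 alternatives, while the number at an unadjusted p under 0.05, 0 as reported, was 0 to 5 with 1 array left out. It was 1 (*Pcdh8*) with centring on array medians, without moderation and with array weights, 4 with the pan-neuronal mean and 3 with the mesenchyme mean as a second term. The 5 without OC mutant array 2 were *Cdh6*, *Cdh9*, *Cdh22*, *Pcdh8* and *Jup*. The medians moved by less than their spread between arrays in every alternative, with leave-one-out ranges of −0.055 to 0.069 for type I cadherins, −0.29 to −0.083 for type II, −0.085 to 0.12 for delta protocadherins and −0.045 to 0.074 for catenins. Of the 32 genes, 18 kept their sign in the 18 alternatives without a second term or a pair of arrays left out and 15 in all 21, and *Cdh19* was not tested under the filter on dim genes.

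Signs turned, none of them called, as follows. Over the feature rule *Cdh4* became 0.0086, and with array weights *Pcdh10* became −0.0023. With 1 array left out, the ranges that cross 0 were −0.023 to 0.23 for *Cdh1*, −0.043 to 0.069 for *Cdh2*, −0.33 to 0.18 for *Cdh3*, −0.22 to 0.085 for *Cdh4*, −0.20 to 0.018 for *Cdh11*, −0.31 to 0.090 for *Cdh13*, −0.29 to 0.065 for *Cdh18*, −0.29 to 0.13 for *Cdh19*, −0.025 to 0.14 for *Cdh20*, −0.21 to 0.23 for *Pcdh10*, −0.17 to 0.039 for *Pcdh18*, −0.085 to 0.14 for *Pcdh19*, −0.13 to 0.14 for *Ctnna2* and −0.13 to 0.12 for *Ctnnd2*. Without control array 1 and OC mutant array 3 together, *Cdh3* was 0.042, *Cdh11* was 0.014, *Cdh18* was 0.064, *Cdh19* was 0.11, *Cdh20* was −0.032, *Pcdh18* was 0.031, *Ctnna2* was 0.032, *Ctnnd2* was 0.021. With the pan-neuronal term, *Cdh4* was 0.11, *Cdh7* was 0.034, *Cdh18* was 0.048, *Cdh13* was 0.20, *Ctnna1* was −0.030, *Ctnna2* was 0.19, *Ctnnb1* was −0.00044, *Ctnnd2* was 0.15. With the mesenchyme term, *Cdh2* was −0.027, *Cdh3* was 0.16, *Cdh11* was 0.032, *Cdh19* was 0.029, *Pcdh10* was −0.093, *Pcdh18* was 0.015, *Pcdh19* was −0.034. The cause of these turns was not tested.

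The replicate number as a block left 0 genes called, turned *Ctnna2* to 0.092 and *Ctnnd2* to 0.052, and gave 8 called slopes in place of 13. The block was fitted because the labels number the arrays of both groups. The deviations of same-numbered arrays correlated at −0.38, −0.13, −0.39 and −0.16, against −0.42 to 0.42 for arrays of different numbers. The labels do not say whether same-numbered arrays share a litter or a batch, and these correlations cannot decide it. The number of called slopes was 13 as reported, 7 to 15 with 1 array left out, 3 without moderation, 0 without control array 1 and OC mutant array 3 together and 1 with the mesenchyme mean, and it lay between 12 and 17 in the other alternatives. With 4 and 5 arrays, the 95% intervals of *Cdh8*, *Cdh9* and *Cdh12* were each wider than 1 on the log2 scale, and differences inside them could not be told from 0.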
